A study of Mus musculus with 39 samples.

Results

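Keratins are the intermediate filament proteins of epithelial cells, and each filament is built from a type I and a type II keratin in equal parts. Simple epithelia such as ducts use chiefly Krt8 with Krt18 and Krt19, the basal layer of stratified epithelia uses Krt5 with Krt14 and Krt15, the layers above it use Krt1 with Krt10, and further members form hair and nail. Because most other cells hold few keratins, the family is commonly used to read the epithelial content of a tissue.

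The keratin gene family was taken as every gene whose symbol in the first count table is Krt followed by digits alone, joined to the second table by Ensembl identifier. The rule found 49 of the 21561 Ensembl genes that both tables list, 26 of type I and 23 of type II. Names with a letter after the digits, such as Krt6a, lie outside it. On GRCm38, 25 type I genes lie on chromosome 11 between 99232761 and 100269871, and the 23 type II genes lie on chromosome 15 between 101347444 and 102004482. Krt18, the remaining type I gene, sits on chromosome 15 at 102028180 to 102032027, with 23697 bases between it and its partner Krt8 (101996698 to 102004482).

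The study sequenced RNA from the gubernaculum, the cord of tissue that guides the descending testis, and from the testis of male C57BL/6J mice. WT mice were compared with homozygous INSL3-KI mice, in which minke whale INSL3 cDNA was placed into the mouse Insl3 locus and the neo cassette was removed by a mating with Cre mice, and with INSL3-KO mice, which lack INSL3, the Leydig cell hormone of testicular descent. Gubernaculum was taken at postnatal day 8 (P8) from WT, INSL3-KI and INSL3-KO and at P23 from WT and INSL3-KI, and testis at P8 and P23 from WT, INSL3-KI and INSL3-KO and at P40 from WT and INSL3-KI. Each of the 13 groups has 3 libraries, 39 in all, with 29861447 to 45260372 counts per library. Libraries are given below in the order of replicates 1, 2 and 3, CPM is counts per 1000000 counts in the shared genes, and a gene is called at an adjusted p-value under 0.01 with a fold change of at least 2 in edgeR's quasi-likelihood test.

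Several libraries stood apart. INSL3-KI gubernaculum replicate 2 at P23 had 23 counts of Crisp1, a secreted protein of the epididymis, where replicates 1 and 3 had 81321 and 312449, and WT gubernaculum replicate 3 at P23 had 33293 where replicates 1 and 2 had 0 and 4. In INSL3-KO gubernaculum at P8, genes of hepatocytes, a list drawn up after these values were seen, summed to 8490, 2390 and 180 CPM, against at most 17.0 CPM in WT. INSL3-KI testis replicate 2 at P8 had 12138 counts of Ldhc, an enzyme of spermatocytes and later germ cells, against 112 and 60 in replicates 1 and 3. The targeted gene was checked in testis, where Insl3 counts were 2922, 3524 and 2722 in WT at P8, 33, 15 and 26 in INSL3-KI, and 906, 804 and 613 in INSL3-KO. At P23 they were 20844 to 25238 in WT, 52 to 84 in INSL3-KI and at most 5 in INSL3-KO, so at P8 the libraries labelled INSL3-KO kept part of the WT count. The second count table holds every INSL3-KO library together with the P23 testis of WT, and the first holds the rest, so in a contrast that spans both, table and genotype cannot be told apart.

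Detection separated the classes. Of the 49 members, 16 reached 100 counts in some library, among them 5 of the 6 simple-epithelial keratins, all 3 basal-layer keratins (Krt5, Krt14, Krt15), 5 of 15 suprabasal ones, 1 of 8 of the hair follicle's root sheath and none of 14 of the hair shaft. Another 31 stayed below 100 counts, and Krt72 and Krt82 had at most 3 counts in every library.

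**Figure D1:**
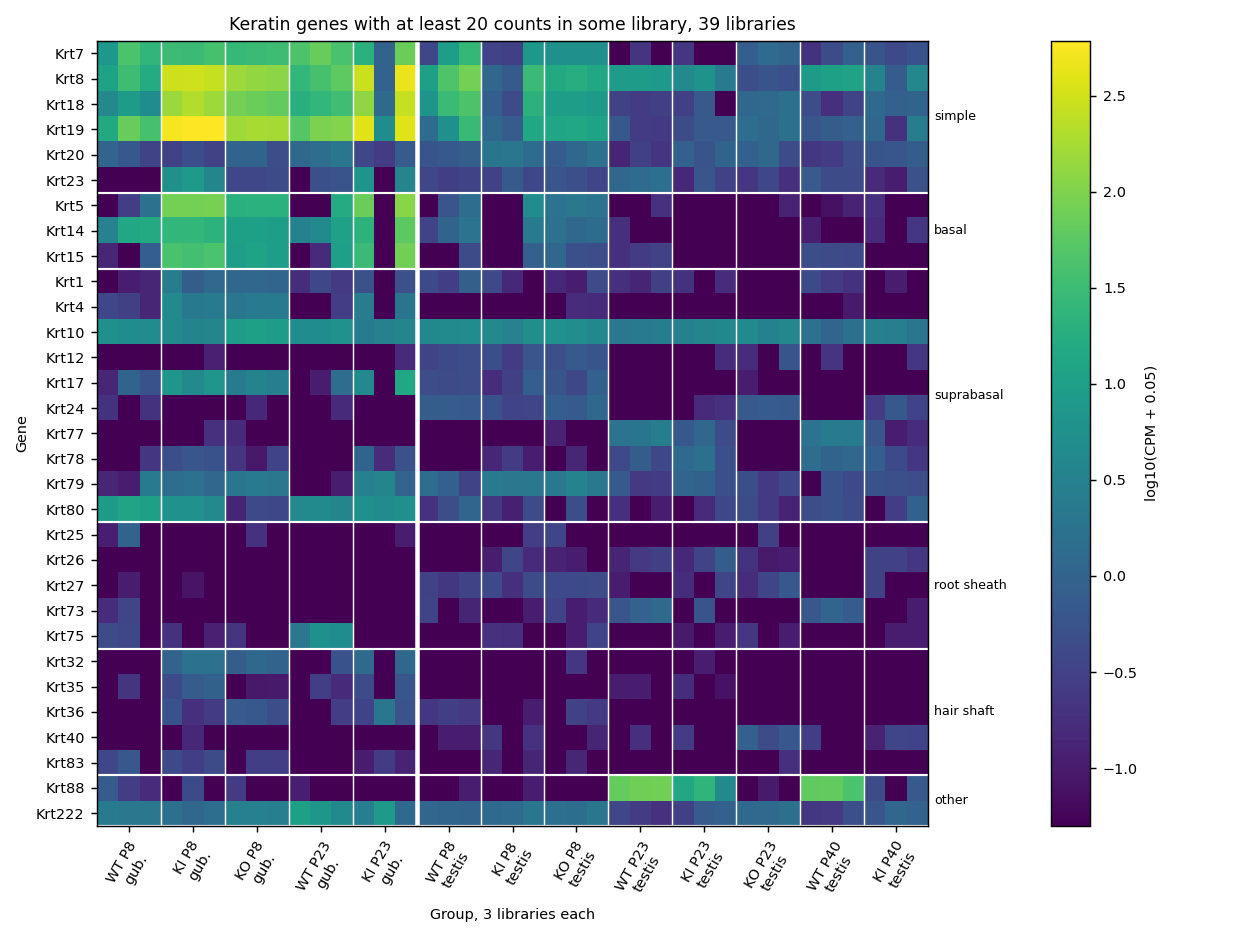
Level of the 31 keratins with at least 20 counts in some library, in 39 libraries (columns, 3 per group, gubernaculum left of the thick line), as log10(CPM + 0.05), with genes ordered by class. Krt8, Krt18 and Krt19 are brightest in INSL3-KI and INSL3-KO gubernaculum, INSL3-KI replicate 2 at P23 is dark for them, and Krt88 is bright in testis at P23 and P40 in WT.

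In WT gubernaculum at P8 the keratins together made up 62.3, 191 and 126 CPM. Per length, Krt19 held 39.1% ± 6.92 (SD, n = 3) of the summed keratin FPKM, Krt8 16.9% ± 3.09, Krt14 9.87% ± 4.54, Krt7, a keratin of ducts and mesothelium, 9.10% ± 2.78, and Krt18 7.14% ± 2.08. The groups of simple and basal keratins were unequal in their partners. Krt5 had 0, 8 and 56 counts where Krt14 had 109, 504 and 546, and the FPKM ratio of Krt8 to Krt18 was 2.09 to 2.63.

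Against WT testis of the same age, WT gubernaculum had 3 keratins called higher and 1 lower of 49, of which 14 could be tested. The test called 14.1% of 15624 genes higher and 14.3% lower. Krt80, a type II keratin of differentiating epithelia, had 291, 440 and 354 counts in gubernaculum and 5, 16 and 39 in testis, a difference of 4.67 ± 0.60 on the log2 scale (fold change ± SE, adjusted p = 0.00051). Without WT testis replicate 3 the difference was 5.56, and that of Krt14, next, was 4.55. Krt14 had 10, 36 and 65 counts in testis and was higher in gubernaculum by 3.89 ± 0.79 (adjusted p = 0.0042), and Krt222, a keratin-like gene, by 1.5 ± 0.32 (adjusted p = 0.0055). Krt12, known from the cornea, was at 0 in the 3 gubernaculum libraries and had 10, 14 and 16 counts in testis, at least 4.19-fold lower at the floor of 3 counts per library (adjusted p = 0.0074). The call of Krt80 held when each library was left out in turn, while Krt222 and Krt12 lost theirs in all 6 such fits, with adjusted p from 0.013 to 0.032. Without WT gubernaculum replicate 2 or 3, or WT testis replicate 2, the adjusted p of Krt14 was 0.016, 0.015 and 0.021. In bulk tissue, fewer cells of a type and less RNA per cell cannot be told apart, here and below.

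In INSL3-KI gubernaculum at P8, 4 of the 6 keratins of simple epithelia and 2 of the 3 of the basal layer were called higher than in WT. The summed keratins were 1200, 1340 and 1250 CPM, against 62.3 to 191 in WT. Of 49 members, 22 could be tested, and 10 were called higher and 1 lower. The same test called 14.4% of 15500 genes higher and 9.70% lower, and the median log2 fold change was 2.92 over the tested keratins, with undetected groups set at their bound, and 0.02 over all tested genes. Krt23 and Krt32, at 0 in every WT library, could be tested only through their INSL3-KI counts. Krt1, Krt4, Krt5, Krt15 and Krt17, also called higher, each had under 10 counts in a WT library. They too passed the filter on low counts only with their INSL3-KI counts. Members like these pull the median and the share called higher upward, so neither describes all 49.

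Among simple-epithelial keratins, Krt19 had 525, 2449 and 1382 counts in WT and 17674, 18427 and 17483 in INSL3-KI. Krt8 had 406, 1178 and 574 counts in WT and 9828, 9497 and 7810 in INSL3-KI. Krt18 had 143, 329 and 166 against 4988, 6108 and 4512. Every INSL3-KI library lay above every WT library for all 3 genes, and the WT libraries differed among themselves, with replicate 1 lowest. The log2 fold changes were 3.50 ± 0.47 for Krt19 (adjusted p = 0.00043), 3.53 ± 0.35 for Krt8 (adjusted p = 7.9e-05) and 4.49 ± 0.31 for Krt18 (adjusted p = 1.1e-05). Krt23, a type I keratin, was at 0 in WT and had 188, 248 and 107 counts in INSL3-KI, at least 68.0-fold higher. The other 2 simple-epithelial keratins, Krt7 and Krt20, a keratin of intestine and urothelium, were not called. Krt7 had 260, 1498 and 833 counts in WT and 1043, 918 and 1127 in INSL3-KI, overlapping groups with a log2 difference of 0.14 ± 0.49 (adjusted p = 0.83). Krt20 had 35, 22 and 10 counts in WT and 9, 13 and 8 in INSL3-KI, which also overlap, with a difference of -1.28 ± 0.61 (adjusted p = 0.11).

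Of the basal-layer keratins, Krt5 had 0, 8 and 56 counts in WT and 2841, 2538 and 2594 in INSL3-KI, and rose by 6.81 ± 0.74 on the log2 scale (adjusted p = 0.00013). Krt15 had 3, 0 and 27 counts against 1360, 1123 and 1223, a change of 6.79 ± 0.71 (adjusted p = 0.0001). The size of both changes turned on WT replicate 3, which held most of the WT counts. Leaving out 1 library in turn gave 6.22 to 9.20 for Krt5 and 6.17 to 9.43 for Krt15, highest without that library, and the value for Krt15 then rests on 3 and 0 counts in WT and is a fitted one. Both calls held in each of these fits. Krt14, the partner of Krt5, moved less. It had 109, 504 and 546 counts in WT and 838, 777 and 644 in INSL3-KI, a difference of 0.83 ± 0.48 that was not called (adjusted p = 0.18) although no library overlapped, and the FPKM ratio of Krt5 to Krt14, at most 0.0792 in the 2 WT libraries where both exceeded 3 counts, was 2.53 to 3.12. The ratio of Krt8 to Krt18 was 1.14 to 1.45, below the WT range.

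**Figure D2:**
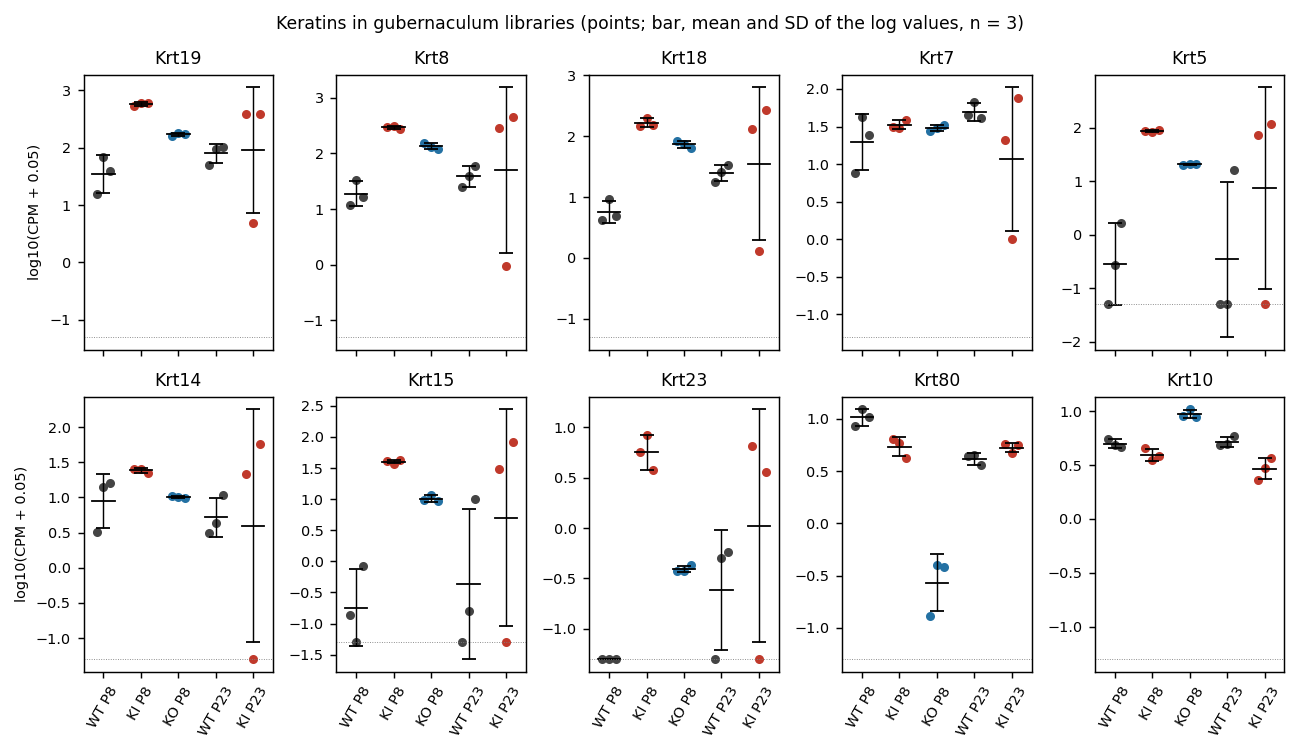
Levels of 10 keratins in the 15 gubernaculum libraries, as log10(CPM + 0.05), with WT in grey, INSL3-KI in red and INSL3-KO in blue; points are libraries and bars the mean and SD of the log values (n = 3), and each panel has its own y axis. Krt19, Krt8, Krt18, Krt5 and Krt15 of both mutants lie above WT at P8, Krt7 overlaps, and the INSL3-KI libraries at P23 are split.

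The upstream bases of Krt8, Krt18 and Krt5 are shown because the partners Krt8 and Krt18, which lie next to each other although of different types, rose together, and because Krt5 had the steeper rise. They are RefSeq sequences on GRCm38.p6, read in the direction of the gene and cut at the edge of the annotated gene. Krt19 and Krt15 had no entry in the table used.
Krt8, chr15:102004483-102004592, minus strand: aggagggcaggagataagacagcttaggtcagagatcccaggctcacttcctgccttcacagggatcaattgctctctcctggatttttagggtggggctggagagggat
Krt18, chr15:102027966-102028179, plus strand: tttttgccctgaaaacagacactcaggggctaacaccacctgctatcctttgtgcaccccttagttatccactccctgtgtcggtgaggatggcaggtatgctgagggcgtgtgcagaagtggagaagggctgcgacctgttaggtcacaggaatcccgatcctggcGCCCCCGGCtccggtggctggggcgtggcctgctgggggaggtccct
Krt5, chr15:101712906-101713155, minus strand: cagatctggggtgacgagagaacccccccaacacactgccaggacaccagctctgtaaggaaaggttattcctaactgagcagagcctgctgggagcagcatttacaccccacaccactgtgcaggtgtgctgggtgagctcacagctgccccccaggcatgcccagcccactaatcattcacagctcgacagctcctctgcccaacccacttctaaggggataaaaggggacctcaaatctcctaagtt
Capitals mark matches to 7 motifs that were searched on both strands in the 250 bases before the RefSeq start. Only the Krt18 stretch holds one, to the AP-2 motif GCCNNNGGC, which occurred in 13.7% of the 32851 windows of all genes and in 5 of the 36 windows of the 35 members with an entry. The core promoter motif TATAAA occurred in 16 of the 36 keratin windows, none of them of Krt8, Krt18 or Krt5, and in 12.4% of all windows. The Sp motif GGGCGG occurred in 2 of the 36 and in 32.7% of all windows, the AP-1 motif TGANTCA in 2 and in 6.75%, and the nuclear factor Y motif CCAAT in 14 and in 33.8%. The Grainyhead-like motif AACCNGTT (1.79% of all windows) and the cAMP response element TGACGTCA (1.55%) occurred in none of the 36.

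The other 4 keratins called higher had at most 226 counts in any library. Krt17, a keratin of activated and basal keratinocytes, had 3, 35 and 17 counts in WT and 226, 137 and 194 in INSL3-KI (log2 fold change 3.20 ± 0.64, adjusted p = 0.0033, and 4.01 without WT replicate 2). Krt4, a keratin of moist stratified linings, had 11, 9 and 3 against 150, 67 and 68 (3.45 ± 0.57, adjusted p = 0.0012). The other 2 called members, Krt1 of the suprabasal epidermis and Krt32 of the hair cuticle, were at or below 3 counts in WT and are at least 17.9-fold and 16.4-fold higher, at 1.54 ± 0.988 and 1.41 ± 0.390 CPM (SD, n = 3). Krt10, the partner of Krt1, did not share the direction, with 189, 171 and 159 counts in WT and 150, 104 and 109 in INSL3-KI (log2 difference -0.66 ± 0.22, adjusted p = 0.033). Krt80 fell by 1.24 on the log2 scale (SE 0.23, adjusted p = 0.0021), from 291, 440 and 354 counts to 210, 174 and 122. Of the 11 calls, 8 held in all 10 alternative fits. Krt17 lost its call without WT replicate 3 or INSL3-KI replicate 1 or 3 (adjusted p 0.012 to 0.016) and Krt1 without WT replicate 2 or INSL3-KI replicate 1 or 3 (0.011 to 0.016). With library sizes alone, where all genes had a median of 0.34, the change of Krt80 was -0.93 and under the fold required.

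In INSL3-KO gubernaculum at P8, the simple-epithelial Krt8, Krt18, Krt19 and Krt23 and the basal-layer Krt5 and Krt15 were again called higher. Summed keratins were 492, 488 and 454 CPM. Of 49 members 18 could be tested, 10 were called higher and 1 lower, and the test called 15.5% of 15609 genes higher and 15.2% lower. The WT libraries are those used above, so the contrasts of both mutants share them. The median log2 fold change was 2.42 over the tested keratins, 2.13 with undetected groups at their bound, and 0.03 over all genes. Krt23, Krt32 and Krt36, at 0 in every WT library, could be tested only through their INSL3-KO counts. Krt1, Krt4, Krt5 and Krt15, with under 10 counts in a WT library, also passed the filter only with their INSL3-KO counts. Such members pull the medians and the share called higher upward, and neither describes all 49.

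Krt19 had 6026, 7777 and 7249 counts and was above WT by 1.88 ± 0.47 on the log2 scale (adjusted p = 0.0090). Krt8 had 5828, 5639 and 5140 counts, a change of 2.57 ± 0.36 (adjusted p = 0.0006), and Krt18 had 3139, 3195 and 2740, a change of 3.45 ± 0.30 (adjusted p = 6e-05). Krt7 had 1022, 1312 and 1408 counts, again within the WT range. Krt5 had 743, 889 and 876 counts (4.88 ± 0.95, adjusted p = 0.003) and Krt15 had 355, 505 and 393 (4.95 ± 0.94, adjusted p = 0.0027). INSL3-KO and WT libraries did not overlap for these 5 called genes, and they did for Krt7. Without WT replicate 3, Krt5 differed by 7.30, and Krt15 by a fitted 7.64 over 3 and 0 counts. Krt20, with a difference of 0.12 ± 0.56 (adjusted p = 0.86), was not called. Krt14, with 383, 428 and 409 counts, lay inside the WT range (-0.32 ± 0.51, adjusted p = 0.60). Krt4 (73, 105 and 98 counts) rose by 3.17 ± 0.47 (adjusted p = 0.00075), Krt32 (28, 49 and 40 counts) was at least 11-fold higher and Krt1 (41, 45 and 43 counts) at least 12.3-fold higher, and the other 2 called higher, Krt23 and Krt36, were at least 3.97-fold and 6.69-fold higher. Krt10, with 332, 444 and 375 counts, was above every WT library, but its log2 difference of 0.75 ± 0.15 (adjusted p = 0.0035) was under the fold required.

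Without INSL3-KO replicate 2, 4 keratins were called higher, and Krt19, Krt5, Krt15 and Krt1 were among the 6 that lost the call (adjusted p = 0.03, 0.014, 0.015 and 0.01). Krt19 also lost its call without INSL3-KO replicate 1 or 3 or WT replicate 3 (0.021 to 0.034), and Krt5 without WT replicate 2 (0.016). Without INSL3-KO replicates 1 and 2, which held the most hepatocyte counts, the log2 fold changes were 2.41 for Krt8, 4.90 for Krt5 and 1.90 for Krt19, and only Krt18 remained called higher, with 1 library left in the group. Krt80 had 3, 15 and 14 counts, and its change of -5.48 ± 0.45 was called, but counts and FPKM imply a median Krt80 transcript length of 3324 bases in the first table against 1877 in the second (2018 against 1909 for Krt8), so what was counted as Krt80 was not the same in both tables.

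**Figure D3:**
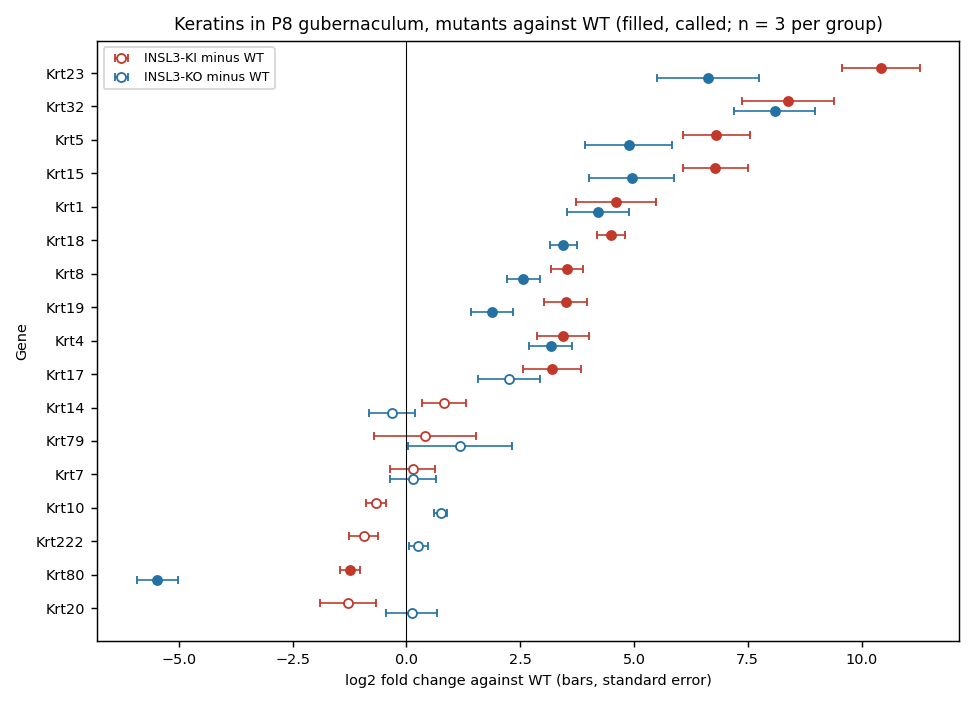
Log2 fold change against WT (x axis) with standard error bars for the 17 keratins tested in both mutants at P8, red for INSL3-KI and blue for INSL3-KO, filled where called. Krt5, Krt15, Krt32 and Krt23 lie farthest to the right, and Krt80 to the left for INSL3-KO. The fitted values of Krt23, Krt32 and Krt1, undetected in WT, depend on the fit and are not bounds.

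Compared directly, INSL3-KI gubernaculum had 8 keratins higher than INSL3-KO and 2 lower of 49, with 21 tested, where 11.9% of 15642 genes were called higher and 10.5% lower. Krt19 was higher by 1.58 ± 0.08 (log2, adjusted p = 1.2e-05), Krt5 by 1.89 ± 0.06 (adjusted p = 2.5e-06), Krt15 by 1.79 ± 0.12 (adjusted p = 2.8e-05) and Krt14 by 1.11 ± 0.10 (adjusted p = 0.00011). Krt18 was higher by 1.00 ± 0.15 (adjusted p = 0.00088) and Krt8 by 0.92 ± 0.11 (adjusted p = 0.00037), either side of the fold required. Krt23 was higher by 3.90 ± 0.37 (adjusted p = 0.00012), Krt80 by 4.20 ± 0.48 (adjusted p = 0.00028) and Krt35, a hair keratin with 12, 22 and 26 counts in INSL3-KI and at most 2 in INSL3-KO, at least 8.97-fold. Krt10 was lower by 1.45 ± 0.17 and Krt222 by 1.25 ± 0.23 (log2 size, adjusted p = 0.0003 and 0.0026). This contrast spans both tables, so genotype and table effects cannot be told apart. Krt18 lost its call without INSL3-KI replicate 2 (log2 difference 0.85) or INSL3-KO replicate 2 or 3 (0.99 and 0.91), Krt222 without INSL3-KO replicate 1 or 2 (adjusted p 0.013 and 0.014), and Krt35 without INSL3-KI or INSL3-KO replicate 2 or 3 (0.011 to 0.015).

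Genes of other epithelial cells moved with the keratins. All 16 general epithelial genes tested were called higher in INSL3-KI and in INSL3-KO at P8, with medians of 7.30 and 6.36 on the log2 scale. The adhesion gene Epcam had 36, 82 and 29 counts in WT, 8451, 8079 and 8138 in INSL3-KI and 7823, 9443 and 8887 in INSL3-KO. Of 14 genes of the Wolffian duct and epididymis, 8 could be tested in each mutant and 7 were called higher in each. The list summed to 7.22 to 9.39 CPM in WT, with 7 genes including Crisp1 undetected, to 2000 to 4010 in INSL3-KI and to 1810 to 1910 in INSL3-KO. Skeletal muscle genes went the other way, with 11 of 12 called lower in INSL3-KI and 10 of 12 in INSL3-KO. Mesothelial genes, whose cells also carry simple keratins, summed to 227 to 646 CPM in WT, 183 to 258 in INSL3-KI and 481 to 512 in INSL3-KO, and none of 9 was called higher in INSL3-KI and 1 in INSL3-KO. The part of these tissues, and of the hepatocyte genes of INSL3-KO, in the keratin levels was not tested.

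Desmosomes and plakins anchor keratin filaments at the cell edge. Of 13 tested in each contrast, 6 were called higher and 1 lower in INSL3-KI, and 6 higher and 2 lower in INSL3-KO, with medians of 1.97 and 0.53. Summed, the list did not rise with the keratins. It held 752 to 1430 CPM in WT, 963 to 1200 in INSL3-KI and 450 to 461 in INSL3-KO, the last below every WT library. Dsp, the desmosomal plakin that binds keratin, had 10, 77 and 101 counts in WT, 2176, 2998 and 1656 in INSL3-KI and 1319, 1370 and 1446 in INSL3-KO. Dsg2, Dsc2 and Pkp2 also lay above every WT library in both mutants, and Pkp1 did so in INSL3-KI alone. In WT, Dsp held only 0.292 to 2.93 CPM and Dsg2 0.351 to 0.841, so the sum hardly reflects them. Jup, which muscle and other cells also use, differed by 0.40 ± 0.09 in INSL3-KI and by -0.94 ± 0.07 in INSL3-KO, both under the fold required. Among regulators and envelope genes of stratified epithelium, 3 of 10 tested were called higher and 2 lower in INSL3-KI, and 4 of 12 higher and 1 lower in INSL3-KO. Of 8 hair follicle regulators, 6 could be tested in each mutant, and 5 and 4 of them were called higher. Hoxc13 was undetected in WT and in both mutants, and Foxn1 in WT and INSL3-KI.

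**Figure D4:**
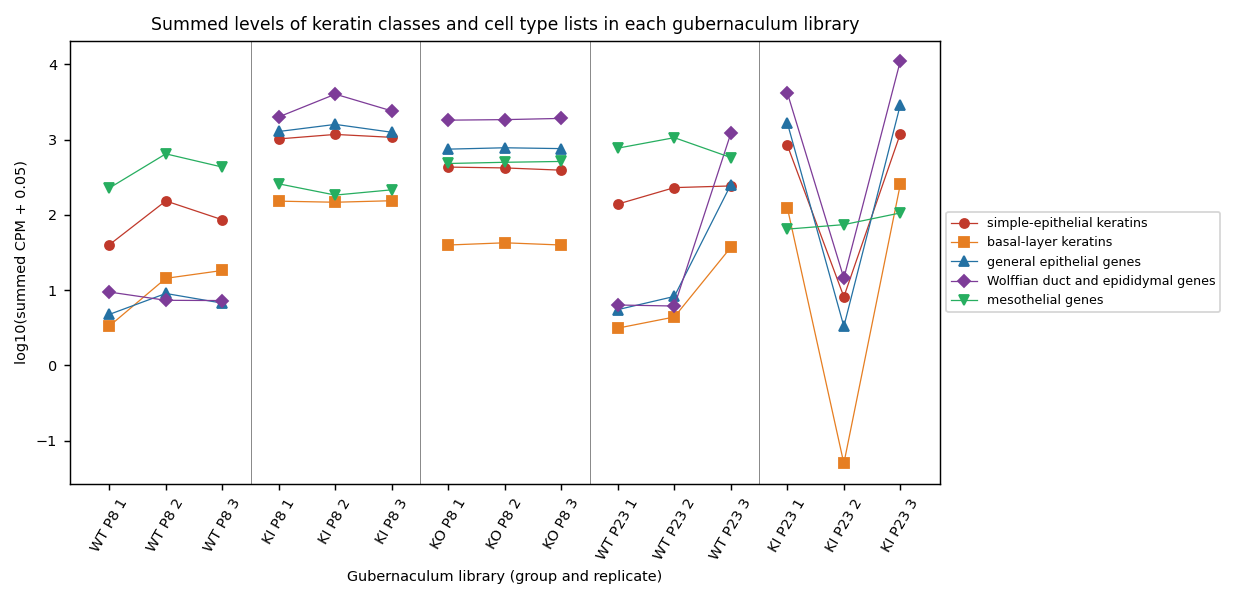
Summed CPM (log10, plus 0.05) of the simple-epithelial and basal-layer keratins and of 3 gene lists of other kinds in each of the 15 gubernaculum libraries, with lines joining the libraries of a group. Keratins, general epithelial genes and epididymal genes are high in both mutants at P8, high in INSL3-KI replicates 1 and 3 and low in replicate 2 at P23, and in WT replicate 3 at P23 the general epithelial and epididymal genes lie above those of the other WT libraries.

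By P23, WT gubernaculum held more of some keratins than at P8. Krt18, with 593, 907 and 1207 counts, rose by 2.19 ± 0.33 on the log2 scale (adjusted p = 0.0036), Krt222 (342, 254 and 160 counts, from 80, 75 and 70) rose by 1.92 ± 0.38 (adjusted p = 0.0085), and Krt80 (143, 160 and 126 counts) fell by 1.2 (SE 0.24, adjusted p = 0.0084). These were the only calls, 2 higher and 1 lower of 49 with 11 tested, where 6.17% of 14941 genes were called higher and 4.34% lower. Krt8, Krt19 and Krt7 differed by 1.12 ± 0.40, 1.12 ± 0.48 and 1.17 ± 0.52 and were not called (adjusted p from 0.061 to 0.11). Krt75, a keratin of the hair follicle's companion layer, had 13, 12 and 0 counts at P8 and 68, 197 and 171 at P23 without reaching the threshold (4.19 ± 0.90, adjusted p = 0.012). None of the 3 calls held in every fit that left out a library. Krt18 lost it without WT replicate 1 or 3 of P8 or replicate 2 of P23 (adjusted p 0.011 to 0.021), Krt222 without any of the 3 of P8 or without replicate 1 or 2 of P23 (0.015 to 0.039), and Krt80 without any of the 6 (0.01 to 0.046).

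In INSL3-KI gubernaculum at P23 the replicates disagreed. Krt8 had 10079, 31 and 18002 counts against 830, 1422 and 2129 in WT, Krt19 had 13799, 164 and 15427 against 1693, 3389 and 3759, and Krt18 had 4533, 42 and 10589 against 593, 907 and 1207. INSL3-KI replicates 1 and 3 lay above every WT library and replicate 2 below. Krt5 had 2491, 0 and 4579 counts in INSL3-KI and 0, 0 and 583 in WT, and Krt15 had 1069, 0 and 3251 against 0, 4 and 358. The 3 libraries without Krt5, in WT as in INSL3-KI, had at most 23 counts of Crisp1 and 24 of Epcam. Krt7 had 722, 33 and 2953 counts against 1472, 2398 and 1456.

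None of the 49 keratins was called in either direction (18 tested, 4 at an unadjusted p under 0.05), where 0.212% of 15082 genes were called higher and 2.35% lower. The log2 differences were 2.25 ± 1.55 for Krt8, 1.34 ± 1.24 for Krt19, 2.02 ± 1.39 for Krt18 and 3.24 ± 2.76 for Krt5 (adjusted p from 0.34 to 0.47). Without INSL3-KI replicate 2, Krt8 was called higher at 2.77 (adjusted p = 0.0094) and Krt75, at 0 in INSL3-KI, was called lower (adjusted p = 0.0095). Without that library and WT replicate 3, which leaves 2 against 2, Krt8 was called higher at 3.12, as were Krt5 and Krt15, which had 0 and 0, and 0 and 4 counts in the WT libraries left, so no fold is given. That choice was made after the values were seen. DESeq2 called Krt78 and Krt79 higher and Krt10, Krt20 and Krt75 lower.

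Krt75 stood apart from the epithelial pattern. It was at 0 in all 3 INSL3-KI libraries at P23, replicate 2 included, against 68, 197 and 171 in WT (adjusted p = 0.011). Krt79, a skin keratin, had 103, 123 and 40 counts in INSL3-KI and 0, 0 and 2 in WT (adjusted p = 0.026). The groups do not overlap for either gene, and neither passed the threshold. Mesothelial genes were lower in INSL3-KI at P23, 64.6 to 106 CPM against 577 to 1060, with 5 of 9 called. Whether the INSL3-KI effect differs between P23 and P8 was tested with an interaction term, which called none of 24 keratins tested (5 at an unadjusted p under 0.05), where 0.0874% of 16016 genes were called higher and 0.194% lower, and DESeq2 called Krt75 and Krt80. The nearest were Krt80 (1.27 ± 0.34, adjusted p = 0.052) and Krt75 (adjusted p = 0.061, no fold given since INSL3-KI at P23 is at 0).

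In WT testis some keratins rose and others fell with age. Krt88, a type II keratin, had 0, 0 and 2 counts at P8 and 2067, 2386 and 1701 at P40, at least 682-fold higher (adjusted p = 2.3e-07). Krt77 (0 in every library at P8; 58, 88 and 99 at P40) was at least 26.6-fold higher, Krt78 (0 at P8; 46, 37 and 44) at least 14.0-fold, and Krt73, a root sheath keratin, rose by 3.34 ± 0.91 (adjusted p = 0.0098) from 10, 0 and 3 to 20, 39 and 29 counts (4.84 without WT replicate 1 of P8 and 2.75 without replicate 2). Of the keratins called lower, Krt18 fell by 5.92 (SE 0.83, adjusted p = 0.00029), from 223, 1179 and 1644 counts to 14, 5 and 12, while Krt14, Krt17 and Krt24 were at least 12.2-, 5.03- and 8.83-fold lower. Of 49 members 20 were tested, 4 called higher and 4 lower, where the test called 31.9% of 16892 genes higher and 27.8% lower. In each direction the tested keratins were called less often than all genes. Krt73 lost its call in 5 of 6 fits that left out a library (adjusted p 0.013 to 0.041), as did Krt14 (0.011 to 0.026). Without WT testis replicate 1 of P8, 8 keratins were called lower, with Krt7, Krt8, Krt19 and Krt5 added.

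Krt8 moved in the direction of Krt18 but by less, and was not called with all libraries. It had 360, 1767 and 3252 counts at P8 and 279, 395 and 456 at P40, a log2 difference of -1.58 ± 0.64 (adjusted p = 0.05). Without WT testis replicate 1 of P8 the difference was -2.06 (adjusted p = 0.00022). Per length, the ratio of Krt8 to Krt18 was 1.10 to 1.45 in WT at P8, 24.3 to 31.3 at P23 and 15 to 72.3 at P40. At P23, where Krt88 counts were 2433, 2948 and 2948, that gene held 90.1% ± 1.02 (SD, n = 3) of the summed keratin FPKM in WT and type I keratins 3.18% ± 0.139, and at P40 the shares were 86.3% ± 3.87 and 3.38% ± 0.997. In CPM, Krt88 held 65.5, 80.2 and 81.1 of the 83.1, 98.7 and 99.5 of all keratins in the WT libraries at P23. Its implied transcript length there was 956 bases, against 1909 for Krt8, so its share is larger per length. The second table, which holds these P23 libraries, names the gene 1700011A15Rik. The shares count it as a type II keratin by its name in the first table. At P8 type I keratins held 54.6% ± 4.46.

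Upstream bases of Krt77 and Krt73, which share the high level in older WT testis, are shown as above. Krt88 had no entry.
Krt77, chr15:101869706-101869955, minus strand: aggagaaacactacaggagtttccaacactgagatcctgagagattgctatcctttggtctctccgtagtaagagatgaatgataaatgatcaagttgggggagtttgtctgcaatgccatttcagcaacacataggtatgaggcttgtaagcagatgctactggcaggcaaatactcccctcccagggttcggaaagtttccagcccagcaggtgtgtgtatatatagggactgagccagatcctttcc
Krt73, chr15:101802361-101802610, minus strand: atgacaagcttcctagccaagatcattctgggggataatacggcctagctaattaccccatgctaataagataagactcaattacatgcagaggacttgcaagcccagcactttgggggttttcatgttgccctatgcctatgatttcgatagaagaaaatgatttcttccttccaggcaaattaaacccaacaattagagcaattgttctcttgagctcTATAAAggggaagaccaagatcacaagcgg
Krt73 holds a TATAAA match that begins 30 bases before the RefSeq start, and Krt77 holds none of the motifs searched.

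At P8 the simple keratins Krt8 and Krt18 varied widely among the WT and among the INSL3-KI testis libraries. Krt8 had 360, 1767 and 3252 counts in WT, 40, 21 and 1085 in INSL3-KI and 600, 628 and 485 in INSL3-KO, and Krt18 had 223, 1179 and 1644, then 27, 12 and 752, then 386, 332 and 297. Crisp1 was at 0, 1309 and 1785 counts in WT, 4, 11 and 3970 in INSL3-KI and 4340, 4061 and 3800 in INSL3-KO, so in WT and INSL3-KI the libraries highest for Krt8 were also highest for Crisp1. None of the 49 keratins was called in INSL3-KI (17 tested, 2 at an unadjusted p under 0.05), where 3.03% of 15702 genes were called higher and 3.25% lower. None was called in INSL3-KO (18 tested, 3 at an unadjusted p under 0.05), where 5.44% of 15723 genes were called higher and 8.37% lower. DESeq2 called none in either. For INSL3-KO, leaving out WT replicate 1 gave 3 lower calls, Krt8 (-2.20), Krt18 (-2.13) and Krt7 (-1.77), and 1 higher, Krt79 (2.05), and leaving out WT replicate 3 gave Krt15 higher, with 0 counts in both WT libraries left. For INSL3-KI, without WT replicate 1 and INSL3-KI replicate 3 no keratin was called, and Krt8 differed by -6.30 (adjusted p = 0.014), in groups chosen after the values were seen.

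At P23, Krt88 was called lower in testis of both mutants, and 5 more keratins in INSL3-KO. In INSL3-KO, Krt88 had 0, 2 and 0 counts against 2433, 2948 and 2948 in WT, at least 947-fold lower (adjusted p = 2.4e-11). Krt77, with 66, 69 and 92 counts in WT, Krt73, with 20, 34 and 45, and Krt78, with 13, 28 and 12, were at 0 in all INSL3-KO libraries, and at least 25.8-, 11.3- and 6.02-fold lower. Krt23 fell by 3.26 on the log2 scale (SE 0.45, adjusted p = 6e-05), from 42, 48 and 55 counts to 6, 13 and 5.

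The partners Krt8 and Krt18 moved in opposite directions. Krt8 fell by 4.79 (SE 0.19, adjusted p = 2.9e-09), from 326, 317 and 280 counts to 15, 21 and 17, and Krt18 rose by 1.77 ± 0.39 (adjusted p = 0.0016), from 10, 8 and 9 to 40, 48 and 60. Their FPKM ratio was 0.217 to 0.336, against 24.3 to 31.3 in WT, and type I keratins held 87.3% ± 1.39 of the keratin FPKM. Krt7 (0, 6 and 0 counts in WT; 27, 51 and 40) rose by 3.55 ± 0.85 (adjusted p = 0.0029), Krt222 (12, 8 and 5; 42, 47 and 60) by 1.89 ± 0.43 (adjusted p = 0.0021), and Krt24, at 0 in WT with 22, 29 and 26 counts in INSL3-KO, was at least 8.31-fold higher. In all, 4 of 49 were called higher and 6 lower (15 tested), where the test called 31.1% of 16732 genes higher and 33.4% lower. Both groups lie in the second table. Krt7, whose WT counts all lay in replicate 2, lost its call without WT replicate 1 or 3 (adjusted p = 0.016 in each) and Krt222 without WT replicate 2 or 3 or INSL3-KO replicate 3 (0.01 to 0.012). With library sizes alone, where all genes had a median of 0.69 in place of 0.06, 7 keratins were called higher and 6 lower.

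In INSL3-KI testis at P23, Krt88, Krt77 and Krt8 lay between WT and INSL3-KO, in a comparison across tables. INSL3-KI was not tested against INSL3-KO at this age. Krt88 had 590, 896 and 152 counts and fell by 2.85 (SE 0.60, adjusted p = 0.0092), the single call of 49 (11 tested), where 8.81% of 16603 genes were called higher and 11.8% lower. The call was lost without any of the WT replicates or INSL3-KI replicate 1 (adjusted p 0.031 to 0.036), and without INSL3-KI replicate 2 the log2 difference was -3.49. Krt77, with 25, 40 and 14 counts, and Krt8, with 172, 239 and 79, lay below every WT library without being called, and Krt8 differed by -1.42 ± 0.40 (adjusted p = 0.025). Krt78, with 49, 59 and 16 counts, overlapped WT. Without INSL3-KI replicate 2 or 3, 5 and 4 keratins were called lower, Krt8, Krt77 and Krt23 among them in both fits.

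At P40, INSL3-KI testis had 5 keratins called lower and none higher of 49 (15 tested, 8 at an unadjusted p under 0.05), where 25.6% of 16677 genes were called higher and 22.1% lower. Krt88 had 15, 0 and 23 counts against 2067, 2386 and 1701 in WT and fell by 7.91 (SE 0.85, adjusted p = 0.00049, and a difference of -8.64 without INSL3-KI replicate 3). Krt77 had 21, 2 and 4 counts against 58, 88 and 99 and fell by 3.71 (SE 0.74, adjusted p = 0.0047, and a difference of -5.24 without INSL3-KI replicate 1), and Krt73, with 0, 0 and 2, was at least 9.39-fold lower. Krt8 had 125, 25 and 136 counts against 279, 395 and 456 (fall of 2.53 on the log2 scale, SE 0.58, adjusted p = 0.0077), and Krt15, with 14, 15 and 14 in WT and 0 in every INSL3-KI library, was at least 4.64-fold lower. Krt18 had 45, 30 and 35 counts against 14, 5 and 12, with no overlap, but was not called (1.24 ± 0.46, adjusted p = 0.045), and the ratio of Krt8 to Krt18 was 0.598 to 2.91. Both groups lie in the first table. The calls of Krt88 and Krt73 held in all 10 alternatives. Krt77 and Krt8 lost theirs without any of the WT replicates or INSL3-KI replicate 3 (adjusted p 0.015 to 0.020 and 0.013 to 0.028), and Krt15 without WT replicate 1 or 2 (0.012 in each).

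**Figure D5:**
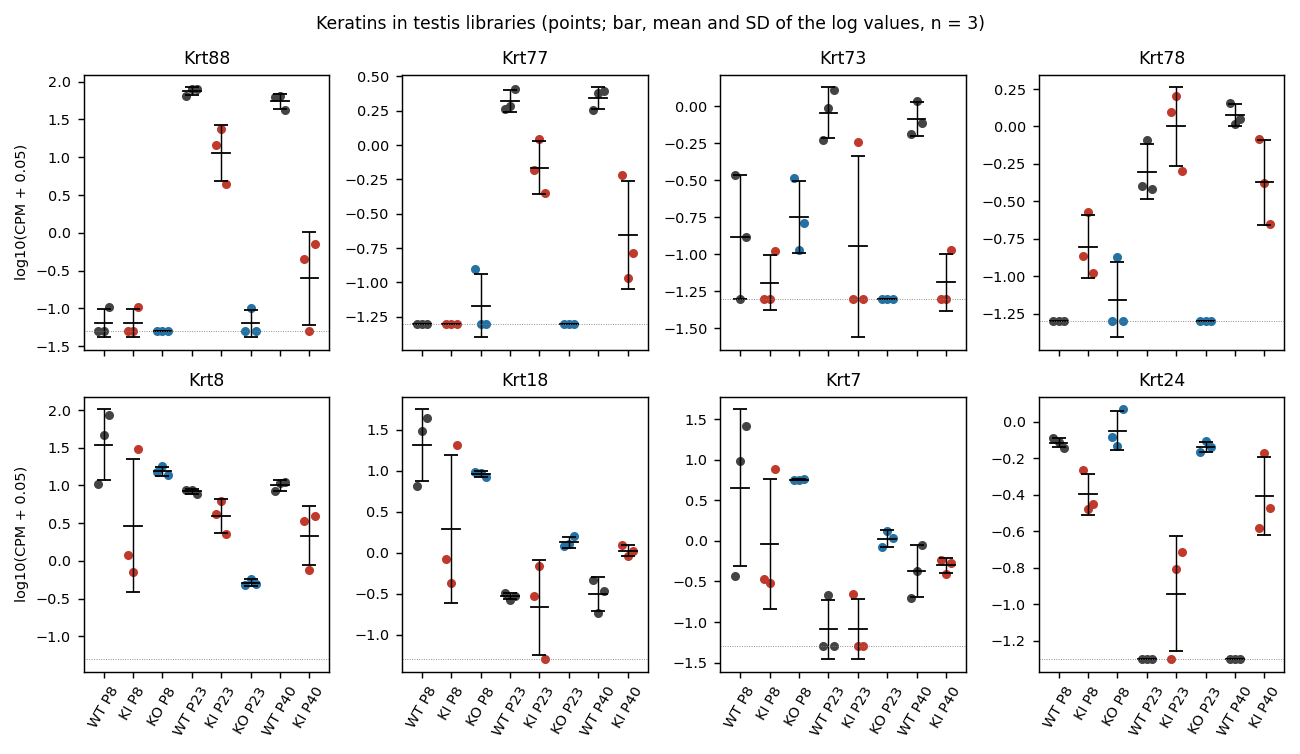
Levels of 8 keratins in the 24 testis libraries by age, as log10(CPM + 0.05), with WT in grey, INSL3-KI in red and INSL3-KO in blue; points are libraries and bars the mean and SD of the log values (n = 3), and each panel has its own y axis. Krt88, Krt77 and Krt73 are high in WT at P23 and P40 and at or near the dotted zero line in INSL3-KO at P23, while Krt18, Krt7 and Krt24 are higher in INSL3-KO than in WT at that age.

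Germ cell genes, when summed, moved with the first of these sets, although not every gene of the list did. The list of 12 summed to 14000 to 15300 CPM in WT testis at P23, 3310 to 5840 in INSL3-KI and 458 to 513 in INSL3-KO, and to 10100 to 11200 in WT and 767 to 3300 in INSL3-KI at P40. Acrv1, an acrosomal protein of spermatids, had 9416 to 10258 counts in WT at P23, 344 to 2222 in INSL3-KI and 5 to 27 in INSL3-KO, and INSL3-KI replicate 3, lowest for Acrv1, was also lowest for Krt88, Krt77 and Krt8. Sycp3 and Ddx4, of the same list, kept other levels in INSL3-KI. At P23 Sycp3 had 8877, 7004 and 7953 counts against 8676, 7751 and 7810 in WT. Ddx4 had 24415, 23122 and 13557 against 23435, 21370 and 22117. At P40 Sycp3 had 6961, 2703 and 1746 counts against 3924, 4413 and 5395, while Ddx4 was below every WT library. Both genes were below every WT library in INSL3-KO at P23. Sertoli cell genes rose, with 12 of 12 called higher in INSL3-KO at P23 and in INSL3-KI at P40. The part of the cell makeup in the testis keratin levels was not tested. In WT gubernaculum at P8, the 25, 8 and 4 counts of Krt88 ran in the order of the counts of Ldhc, 650, 268 and 62. Other libraries broke this order. INSL3-KI testis replicate 2 at P8 had 12138 counts of Ldhc and 0 of Krt88. INSL3-KO gubernaculum replicate 1 at P8 had 0 of Ldhc and 8 of Krt88.

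Across the 13 groups, the order of the levels differed between keratins. Krt19 was highest at 582 ± 42.9 CPM (SD, n = 3) in INSL3-KI gubernaculum at P8, followed by 264 ± 224 in INSL3-KI gubernaculum at P23 and 171 ± 9.92 in INSL3-KO at P8, of which the P23 group, with replicate 2 at 4.80 CPM, spans the level of the last, and it was lowest, at 0.343 ± 0.239, in WT testis at P23. Krt8 ranged from 293 ± 23.2 to 0.467 ± 0.0539 in INSL3-KO testis at P23, and Krt18 from 169 ± 28.9 to 0.245 ± 0.0258 in WT testis at P23. Krt7 was highest at 50.8 ± 14.4 in WT gubernaculum at P23, and Krt5, Krt14 and Krt15 reached 86.4 ± 2.63, 26.3 ± 28.9 and 40.1 ± 2.54 in INSL3-KI gubernaculum, Krt14 at P23 and the others at P8. Krt1 stayed at or below 1.54 ± 0.988 CPM everywhere. Krt10 ranged from 9.38 ± 0.853 CPM in INSL3-KO gubernaculum at P8 to 1.40 ± 0.339 in WT testis at P40, and it was detected in all 39 libraries.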

How the data were processed

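RNA of gubernaculum and testis was made into poly(A) libraries and sequenced as paired reads of 150 bases, and per the labels' processing notes the authors aligned the reads with HISAT2 to GRCm38. The deposited count tables hold read counts per Ensembl gene without normalization, and the deposited FPKM tables hold the same genes scaled by the authors to gene length and library size. The counting program, the annotation and the use of strand are not given in the sources used here, so reads of overlapping or closely similar keratins may be split between them. These tables hold no columns of fold changes or p-values, and none from the authors were used.

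The tables (27 and 12 libraries) were joined on the Ensembl identifier, with 94.16 to 97.86% of each library's counts in shared genes. Each comparison was fitted across all genes of its groups with edgeR 4.0.16 in R 4.3.3 (quasi-likelihood test, TMM, filterByExpr with at least 10 counts and 15 in total, Benjamini-Hochberg adjustment), with DESeq2 1.42.0 as an alternative. Others were no low-count filter, library size alone, the replicate number as a block and leaving out each library, and tests were checked on simulated counts. Undetected means at most 3 counts in every library of a group, and bounds use 3 counts per library. CPM were computed from the shared genes, and the FPKM serve for levels between genes. Plots used matplotlib 3.10.9, and coordinates are those of GENCODE on GRCm38.

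Of the called members in each contrast and direction, the 8 with the highest mean FPKM are named, and further ones were named after their values were seen. The members and the gene lists were chosen with earlier results of these data known. The labels number the 3 libraries of each group as biological replicates without naming the animals, and p-values measure the spread between these libraries. Same-numbered libraries did not deviate together in every pair of any comparison (correlations of -0.17 to 0.44), so the numbers were not taken as pairs.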

Additional observations from a re-analysis of the deposited data

Results flagged for a closer look

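In gubernaculum at P8 the departures of INSL3-KI and INSL3-KO from WT were compared by testing INSL3-KI against INSL3-KO, and 10 keratins differed. On the log2 scale (edgeR, adjusted p under 0.01), INSL3-KI was above INSL3-KO by 1.89 for Krt5, 1.79 for Krt15, 1.11 for Krt14, 1.58 for Krt19, 1.00 for Krt18, 3.90 for Krt23 and 4.20 for Krt80, each in 3 of 3 libraries, and differed by -1.45 for Krt10 and -1.25 for Krt222. Krt35 was undetected in INSL3-KO and at least 8.97-fold higher in INSL3-KI, where 4.03 is a fitted log2 value and no bound. Genotype and table cannot be told apart in this contrast, and the Krt80 value also carries the unequal transcript lengths. Krt8 (0.92) and Krt7 (-0.04) were not called.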

How the results depend on the processing

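Of 63 calls on keratins in 12 comparisons of 2 groups, 29 held in every alternative, 34 were lost in at least 1 and none reversed; DESeq2 lost 1. With library sizes alone, the keratins called lower numbered 0 in INSL3-KI gubernaculum at P8 and 7 in WT testis by age, and those called higher 1, 7 and 1 in testis of INSL3-KI and INSL3-KO at P23 and of INSL3-KI at P40. This scaling moved the median of all genes by up to 0.67 in size (log2). Without the low-count filter no keratin was lower in WT gubernaculum than in testis. DESeq2 called 2 higher and 3 lower in INSL3-KI gubernaculum at P23, 5 lower in INSL3-KI testis at P23, 2 higher at P40, and 1 higher and 1 lower for the interaction. With the replicate block, 42 calls were kept and 21 lost, although the numbers did not pair the libraries; 1 keratin was lower in gubernaculum of INSL3-KI against INSL3-KO, 0 lower in INSL3-KI testis at P23, 1 higher in INSL3-KO, 2 lower in INSL3-KI at P40, 0 lower in WT gubernaculum than testis, 0 higher and 0 lower in WT gubernaculum by age, and 2 lower in WT testis by age. Without INSL3-KO gubernaculum replicates 1 and 2, added after the data were seen, 1 keratin was higher than in WT, and 0 were lower in INSL3-KI against INSL3-KO.

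Leaving out 1 library in turn gave 4 to 11 higher and 1 to 2 lower in INSL3-KO gubernaculum, 1 to 2 lower in INSL3-KI against INSL3-KO, 0 to 1 higher and 0 to 1 lower in INSL3-KI gubernaculum at P23 (3 higher without INSL3-KI replicate 2 and WT replicate 3), 0 to 1 higher and 0 to 3 lower in INSL3-KO testis at P8, 0 to 5 lower in INSL3-KI and 2 to 5 higher in INSL3-KO testis at P23, 0 to 1 higher and 2 to 6 lower at P40, 1 to 3 higher and 0 to 1 lower for WT gubernaculum against testis, 0 to 2 higher and 0 lower by age in gubernaculum, and 3 to 8 lower by age in testis. The causes were not tested. Where a group is undetected, 3 counts per library limit what can be said, and most hair keratins were too low to test.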
